A study of Mus musculus with 66 samples.

Results

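The 5 erythroid genes described here are the adult alpha globins Hba-a1 and Hba-a2, the adult beta globins Hbb-bs and Hbb-bt, and Alas2, the erythroid form of the first enzyme of haem synthesis. They were chosen by name from the 45706 gene identifiers of the count table. All 5 were matched by symbol to an Ensembl identifier and all 5 passed the low-count filter in each comparison. Their levels were measured in 66 libraries of bulk RNA from the central nervous system of 30 mice.

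Haemoglobin is a tetramer of alpha and beta chains, each holding a haem group, and its messenger RNA is made in red cell precursors and persists in circulating reticulocytes. Alas2 supplies the haem of red cell precursors, while the related enzyme Alas1 serves other tissues. Brain and spinal cord are not sites of red cell production, so blood left in the vessels of dissected tissue is a usual carrier of globin messenger RNA, and globin RNA has also been described in neural cells. Inbred mice differ at the beta-globin locus: C57BL/6J carries the single haplotype with Hbb-bs and Hbb-bt, DBA strains carry the diffuse haplotype with Hbb-b1 and Hbb-b2, and the reference genome, built from C57BL/6J, holds the first pair.

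The series compared 5 spontaneous homozygous mutants of Rorb, a nuclear receptor gene of neurons, with wild-type mice of C57BL/6J or DBA/1J. Brain hemisections and extruded spinal cords of 24 mice came from C57BL/6J (n = 3, 8 weeks), H1/H1 (n = 3, 8 weeks), H2/H2 (n = 4, 7.9 to 9.4 weeks), H3/H3 (n = 4, 8 to 9.6 weeks), H4/H4 (n = 4, 8.4 to 8.6 weeks), DBA/1J (n = 3, 8.4 to 8.9 weeks) and H5/H5 (n = 3, 8.4 to 8.7 weeks). Cortex, hippocampus and cerebellum came from another 6 mice at 7 weeks, 3 DBA/1J and 3 H5/H5. Both sexes were in every group of mice. None received a treatment, and the mice were killed with CO2. The H1/H1 allele, a duplication that takes in the first exon of the Rorb1 isoform and sequence before it, arose on C57BL/6J, and the H5/H5 allele, which removes the start codon of 1 Rorb isoform, arose on DBA/1J. The H2/H2 and H3/H3 alleles, for which the study gives no lesion, arose on the albino B6(Cg)-Tyr c-2J/J strain, and the H4/H4 allele, a premature stop codon, on B6.129S7-Il1r1 tm1/mx/J. H1/H1 to H4/H4 were set against C57BL/6J and H5/H5 against DBA/1J, so for H2/H2, H3/H3 and H4/H4 the Rorb allele and the substrain cannot be told apart.

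Total expected counts lay between 32889755 and 59120536 per library. Tissue markers matched the labels: Hoxc8 had a mean of 31.8 CPM (counts scaled to the library's total) in spinal cord and 0.0208 in brain hemisections, and Gabra6 had 726 in cerebellum and 0.124 in cortex. Rorb was 9.998 to 15.4 CPM in H4/H4 brains and 27.1 to 30.1 in H2/H2 brains against 51.5 to 61.6 in C57BL/6J, but 52.0 to 55.6 in H3/H3 brains. In H5/H5 cortex it was 143 to 154 CPM against 81.5 to 104 in DBA/1J. The 3 region libraries of 1 mouse, H5/H5 replicate 3, were labelled female and held 57.8 to 86.2 CPM of the Y-linked gene Ddx3y, whereas the other libraries labelled female held at most 0.0750, and the H5/H5 comparisons in the regions and the spread over regions are given with and without this mouse. The brain hemisection of H1/H1 replicate 1 stood apart in other blood cell genes, as described with the gene lists.

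The sequences show why the copies are hard to count apart. Hba-a1 (ENSMUSG00000069919, chr11:32283672-32284486, plus strand, GRCm38.p6) and Hba-a2 (ENSMUSG00000069917, chr11:32296492-32297310, plus strand) differ at 1 of 429 coding bases, C381T, counted from 1 at the A of the start codon with the Hba-a1 base first. Hbb-bs (ENSMUSG00000052305, chr7:103826523-103827928, minus strand) and Hbb-bt (ENSMUSG00000073940, chr7:103812524-103813923, minus strand) differ at 1 of 444 coding bases, C417T, with the Hbb-bs base first. Neither change alters a residue, in 143 and 148 codons including the stop. The stretches around these bases, read from GENCODE vM39 transcripts, run from base 351 to 411 of the alpha and 387 to 444 of the beta coding sequence, with the differing base in capitals.
Hba-a1: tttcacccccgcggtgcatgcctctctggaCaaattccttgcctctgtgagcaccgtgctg
Hba-a2: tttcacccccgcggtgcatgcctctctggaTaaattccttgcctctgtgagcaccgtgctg
Hbb-bs: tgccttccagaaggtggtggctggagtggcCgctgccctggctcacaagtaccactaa
Hbb-bt: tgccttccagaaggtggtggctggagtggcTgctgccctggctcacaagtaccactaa
Outside the coding sequence the pairs part ways. The alpha transcripts were identical over all 90 bases after the stop codon and all 128 compared before the start, whereas the beta transcripts differed at 36 of 131 bases after the stop and at 19 of 87 before the start. A read within the coding sequence thus had at most 1 base to separate either pair, and the bases that further separate the beta copies lie in the untranslated ends.

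The promoters of the members are shown, 250 bases before to 50 after the start as given by RefSeq on GRCm38.p6. Capitals mark matches on either strand to GATA letters (the word AGATAA, the word TGATAA, the word AGATAG or the word TGATAG), to the word CACCC, to the word CCAAT and to the word ATAAA, the core letters of known globin promoter elements.
Hba-a1, chr11:32283422-32283721, plus strand: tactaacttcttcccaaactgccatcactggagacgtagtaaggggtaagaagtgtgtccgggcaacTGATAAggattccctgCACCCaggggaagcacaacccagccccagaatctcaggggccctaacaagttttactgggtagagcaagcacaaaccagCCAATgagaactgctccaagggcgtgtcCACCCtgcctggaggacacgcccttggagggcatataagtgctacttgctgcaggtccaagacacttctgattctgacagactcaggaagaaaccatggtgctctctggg
Hbb-bs, chr7:103827879-103828178, minus strand: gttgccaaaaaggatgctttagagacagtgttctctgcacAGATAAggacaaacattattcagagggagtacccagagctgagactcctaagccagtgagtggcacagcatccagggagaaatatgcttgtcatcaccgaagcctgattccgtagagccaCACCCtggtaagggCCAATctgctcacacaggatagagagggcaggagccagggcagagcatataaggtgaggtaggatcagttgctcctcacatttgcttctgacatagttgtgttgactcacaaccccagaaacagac
Hbb-bt, chr7:103813874-103814173, minus strand: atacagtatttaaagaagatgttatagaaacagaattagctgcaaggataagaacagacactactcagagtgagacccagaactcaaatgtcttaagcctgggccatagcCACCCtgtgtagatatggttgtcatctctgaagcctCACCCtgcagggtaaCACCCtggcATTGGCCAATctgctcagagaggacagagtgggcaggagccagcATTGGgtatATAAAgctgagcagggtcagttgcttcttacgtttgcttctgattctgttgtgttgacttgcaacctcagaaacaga
Alas2, chrX:150547167-150547466, plus strand: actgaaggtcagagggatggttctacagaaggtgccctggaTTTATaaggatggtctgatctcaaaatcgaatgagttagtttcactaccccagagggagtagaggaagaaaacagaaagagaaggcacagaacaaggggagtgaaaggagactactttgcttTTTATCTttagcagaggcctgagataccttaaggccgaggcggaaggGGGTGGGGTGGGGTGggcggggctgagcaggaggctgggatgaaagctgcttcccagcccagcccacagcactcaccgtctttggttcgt
The Hba-a2 window (chr11:32296242-32296541) matched that of Hba-a1 at all 297 bases they share, while those of Hbb-bs and Hbb-bt matched at 74.7% of 293 aligned bases. Letters for GATA occurred once in each window other than that of Hbb-bt, which had 0, and in 29.8% of 32851 promoters. CACCC occurred 2, 2, 1, 3 and 3 times in Hba-a1, Hba-a2, Hbb-bs, Hbb-bt and Alas2, and in 57.5% of promoters. CCAAT was present in the 4 globin windows and in 37.4% of promoters. ATAAA was present in the windows of Hbb-bt and Alas2 and in 40% of promoters, and in Alas2 1 of its matches overlaps the GATA match. These matches describe letters only.

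Levels were set between genes in TPM, transcript levels that allow for length. Over the 66 libraries the median was 385 TPM for Hbb-bs (146 to 720), 253 for Hba-a1 (114 to 802), 244 for Hba-a2 (0 to 540), 60.6 for Hbb-bt (16.1 to 127) and 3.77 for Alas2 (1.43 to 7.33). In the C57BL/6J background Hba-a2 had a median of 342 TPM and Alas2 3.795, whereas in the DBA/1J background Hba-a2, at 7.45 TPM, was near Alas2 at 3.74. The depth behind these values was 932 to 7628 expected counts for Hba-a1, 1478 to 8772 for Hbb-bs, 139 to 1190 for Hbb-bt and 49 to 255 for Alas2. It was 1204 to 3820 for Hba-a2 in the C57BL/6J background and 0 to 258 in the DBA/1J background, so counting error weighs most on Alas2 in the former and on Hba-a2 in the latter. The 4 globins together took 85.4 to 409 CPM of a library, with a median of 235, which is 0.0235% of its counts. In bulk tissue, fewer cells of a type and less RNA per cell cannot be told apart.

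**Figure D1:**
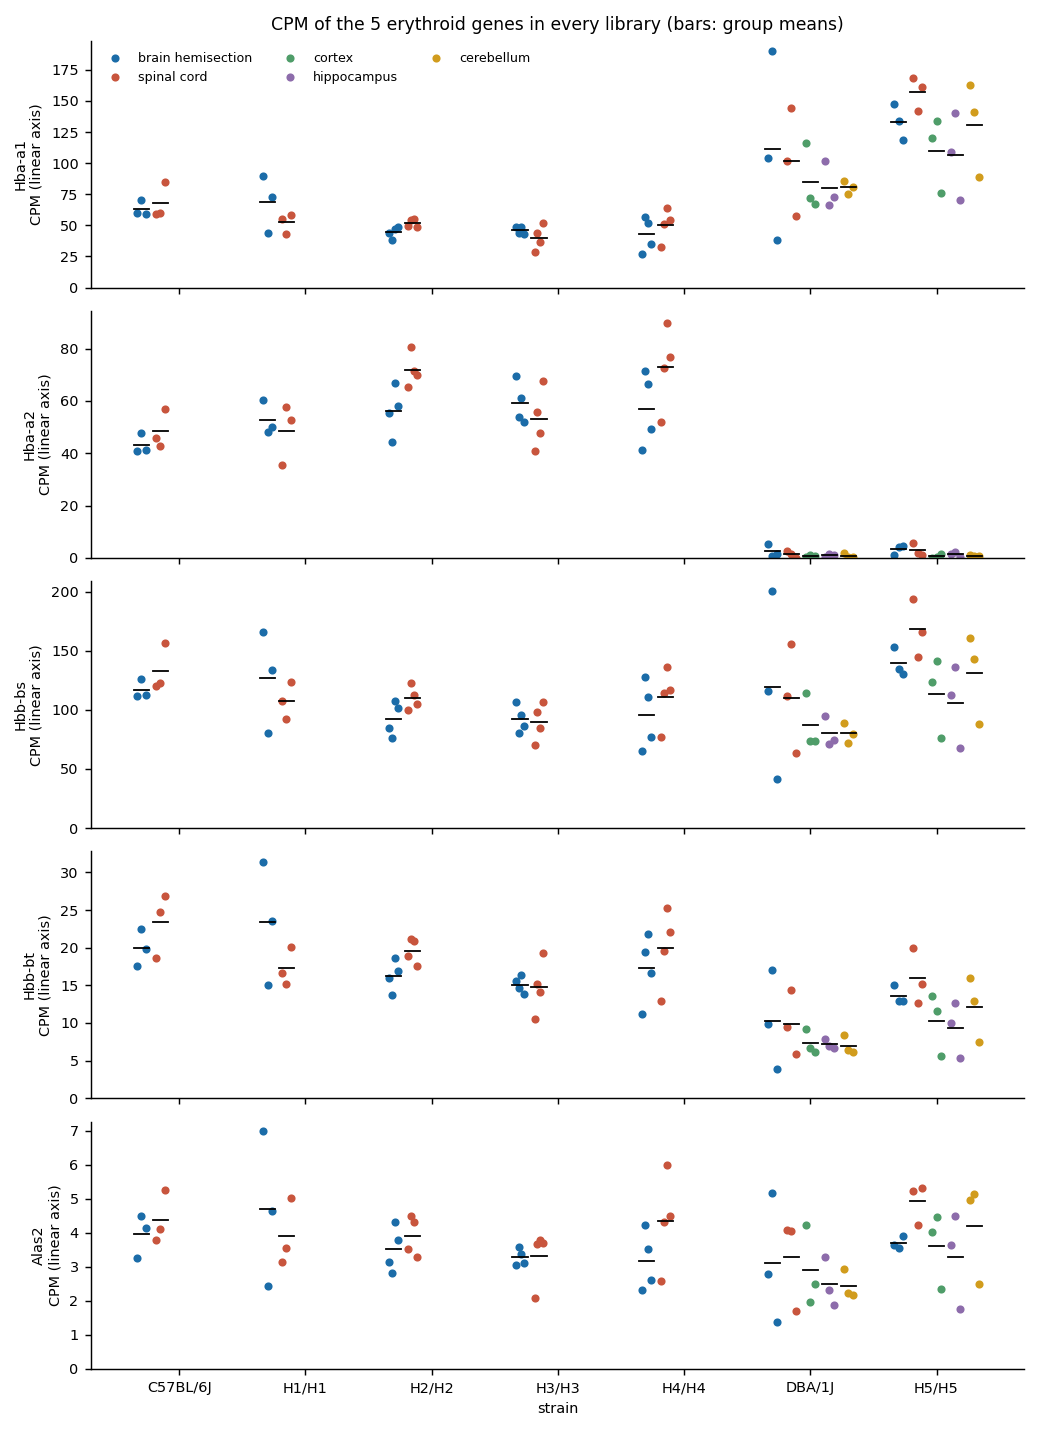
CPM of Hba-a1, Hba-a2, Hbb-bs, Hbb-bt and Alas2 (linear axes) in all 66 libraries, by strain and coloured by tissue; points are mice and black bars are group means. Hba-a2 lies at 0 to 5.71 CPM in the DBA/1J and H5/H5 libraries and at 35.4 to 89.9 CPM in all others.

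Within mice of 1 group the globins and Alas2 rose and fell together. Over 66 libraries, the deviations of log2 CPM from the group mean had a Pearson correlation of 0.99 between Hba-a1 and Hbb-bs, 0.95 between Hba-a1 and Hbb-bt, and 0.92 between Alas2 and Hbb-bs, as a description of libraries that share mice and depth. Hba-a2 followed the others in the C57BL/6J background, with correlations of 0.75 to 0.79, and not in the DBA/1J background, with 0.11 to 0.18. The ratio of globin to Alas2 counts lay within 48.4 to 87.1 (median 64.3). The ratio of alpha to beta counts lay within 0.693 to 1.03 and differed between groups in value. In brain it was 0.762 to 0.795 in C57BL/6J, 0.899 to 0.983 in H2/H2, 0.951 to 1.03 in H3/H3 and 0.872 to 0.896 in H4/H4, and in spinal cord 0.693 to 0.771 against 0.942 to 0.974, 0.856 to 0.950 and 0.924 to 0.950. These mutants did not overlap with C57BL/6J in either tissue, a difference that was seen in the values and not tested. It was not particular to them. The DBA/1J background, at 0.862 to 0.935 in brain and 0.815 to 0.918 in cord, also lay above C57BL/6J. So did H1/H1 replicate 2, at 0.963 and 0.942. In TPM the ratio in brain was 1.04 to 1.09 in C57BL/6J and 1.26 to 1.497 in H2/H2, H3/H3 and H4/H4. It was 1.38 in H1/H1 replicate 2 and 1.01 to 1.10 in the DBA/1J background, which overlapped with C57BL/6J. The summed globin level itself covered a wider range, from 85.4 CPM in the brain of DBA/1J replicate 3 to 409 CPM in that of DBA/1J replicate 2.

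The first comparison asked how the alpha globins differ between the backgrounds. Hba-a2, the second alpha gene, was 40.7, 47.7 and 41.1 CPM in the brains of the 3 C57BL/6J mice and 5.22, 0.717 and 1.55 CPM in those of the 3 DBA/1J mice. In spinal cord it was 45.7, 42.7 and 57 CPM in C57BL/6J and 2.58, 1.42 and 0 CPM in DBA/1J. The groups did not overlap in either tissue, and the library at 0 could hold up to 3 counts, or 0.0699 CPM. With edgeR's quasi-likelihood test, Hba-a2 was lower in DBA/1J by a log2 fold change of -4.06 ± 0.46 (SE, adjusted p = 0.000391) in brain and -5.17 ± 0.43 (adjusted p = 1.63e-06) in spinal cord. Non-overlapping groups were found for 28.1% of all genes tested in brain and 30.8% in spinal cord.

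Hba-a1, the first alpha gene, went the other way in value. It was 60.1, 70.4 and 59.4 CPM in C57BL/6J brains and 104, 190 and 38.4 CPM in DBA/1J brains, and the groups overlapped because DBA/1J replicate 3 was below every C57BL/6J mouse. In spinal cord it was 59.3, 59.6 and 84.6 CPM against 102, 144 and 57.8 CPM. The log2 fold changes of 0.86 ± 0.42 (adjusted p = 0.25) and 0.62 ± 0.25 (adjusted p = 0.108) did not pass in edgeR. Counted as 1 gene, the alpha pair had log2 fold changes of 0.14 ± 0.41 in brain and -0.14 ± 0.25 in spinal cord, so the low Hba-a2 of DBA/1J was not accompanied by a called change of the sum. The reads of DBA/1J mice were placed on a C57BL/6J reference, in which the coding sequences of the copies differ by 1 base. A different base in DBA/1J and a different level of the gene cannot be told apart in these counts.

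Expressed as a share, Hba-a1 took 97.2% ± 1.80 (SD, n = 6 mice) of alpha-globin counts in brains of the DBA/1J background (DBA/1J and H5/H5) and 48.2% ± 7.42 (n = 18) in those of the C57BL/6J background, a difference of 49.0 percentage points. In spinal cord the shares were 98.5% ± 1.20 and 46.4% ± 7.45, a difference of 52.2 points. The ranges were far apart, 95.2 to 99.6% against 39.8 to 59.8% in brain. A two-sided exact permutation test over mice gave p = 7.43e-06 in each tissue, the smallest it can give with 6 and 18 mice. Among wild-type mice alone the difference was 37.5 points in brain and 40.7 in spinal cord, where 3 against 3 mice cannot reach an exact p below 0.1. In the 18 region libraries of the DBA/1J background the share was 97.9 to 100%, and Hba-a2 was at most 2.17 CPM.

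**Figure D2:**
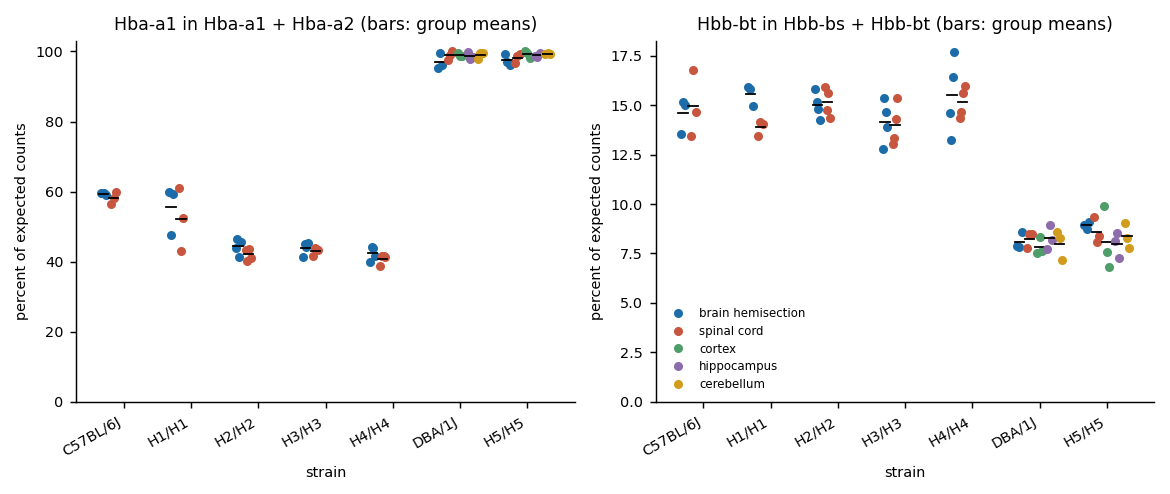
Share of Hba-a1 in alpha-globin expected counts (left, percent) and of Hbb-bt in beta-globin expected counts (right, percent) for every library, by strain and coloured by tissue; black bars are group means. The alpha share is at or above 95.2% in DBA/1J and H5/H5 and at or below 60.9% elsewhere, and the H2/H2, H3/H3 and H4/H4 mice lie below the C57BL/6J mice.

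The beta globins asked for the haplotype difference. Hbb-bt, the minor beta gene of the single haplotype, was 18.6, 24.7 and 26.9 CPM in C57BL/6J spinal cords and 9.41, 14.4 and 5.84 CPM in DBA/1J spinal cords, with no overlap. In brain it was 17.5, 22.5 and 19.8 CPM against 9.92, 17.0 and 3.90 CPM, also without overlap. Groups did not overlap for 28.1% of all genes tested in brain and 30.8% in spinal cord. Hbb-bt fell in DBA/1J spinal cord by 1.22 ± 0.25 on the log2 scale (edgeR, adjusted p = 0.0034), while the value of -0.90 ± 0.38 in brain did not pass (adjusted p = 0.176). The call in cord held in 11 of 12 alternative analyses and was lost when the beta copies were counted as 1 gene (-0.35, adjusted p = 0.353). Hbb-bs, the major beta gene, was 112, 126 and 112 CPM in C57BL/6J brains against 116, 201 and 41.5 CPM in DBA/1J brains, and 120, 123 and 157 CPM against 112, 155 and 63.2 CPM in spinal cords. Its log2 fold changes were 0.08 ± 0.41 and -0.24 ± 0.24, and neither passed.

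The share of Hbb-bt in beta-globin counts was steadier than either level. It was 8.51% ± 0.536 (SD, n = 6) in brains of the DBA/1J background and 15% ± 1.19 (n = 18) in those of the C57BL/6J background, with ranges of 7.81 to 9.08% and 12.8 to 17.7%. In spinal cord it was 8.42% ± 0.533 and 14.7% ± 1.04. The differences of -6.44 and -6.23 points had an exact two-sided permutation p of 7.43e-06 each, the smallest possible. Among wild-type mice alone they were -6.48 and -6.70 points (exact p = 0.1, the smallest for 3 against 3). The 18 region libraries had shares of 6.82 to 9.90%, or 7.15 to 9.90% without H5/H5 replicate 3, under that of every C57BL/6J-background library, the lowest of which was 12.8%. Hbb-b1 and Hbb-b2, the beta genes of the diffuse haplotype, were not analysed here. Where their reads were counted is not known, so a smaller share of Hbb-bt and a different placement of reads cannot be told apart in DBA/1J mice. The expected counts of Hbb-bs and Hbb-bt were divided between the copies, and not whole, in all 66 libraries.

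Alas2 was 3.24, 4.5 and 4.15 CPM in C57BL/6J brains and 2.80, 5.17 and 1.38 CPM in DBA/1J brains, and 3.78, 4.11 and 5.26 CPM against 4.07, 4.05 and 1.70 CPM in spinal cords. The groups overlapped in both tissues, with log2 fold changes of -0.29 ± 0.37 and -0.39 ± 0.27. In all, edgeR called 1 of 5 members between the wild types in brain, where it called 11.2% of all genes tested, and 2 of 5 in spinal cord, where it called 21.3%.

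The next comparisons set each mutant on a C57BL/6J-related background against C57BL/6J. In these, Hba-a1 and Hba-a2 had fold changes of opposite sign in the H2/H2, H3/H3 and H4/H4 mice, and the pair counted as 1 gene did not pass the test in any. Hba-a1 was 43.5, 38.5, 46.8 and 48.8 CPM in H2/H2 brains, 49.1, 44.2, 48.3 and 43.2 CPM in H3/H3 brains, and 27.1, 56.9, 52.2 and 35 CPM in H4/H4 brains. All 12 of these values were below the lowest C57BL/6J brain, 59.4 CPM. Hba-a1 fell by 0.49 ± 0.08 on the log2 scale in H2/H2 brain (edgeR, adjusted p = 0.0332) and by 0.45 ± 0.06 in H3/H3 brain (adjusted p = 0.0166), while -0.53 ± 0.18 in H4/H4 brain did not pass (adjusted p = 0.249). These were 1 of 5 members called in H2/H2 brain against 0.136% of genes tested, 1 of 5 in H3/H3 brain against 0.164%, and 0 of 5 in H4/H4 brain against 0.703%, where 2 members had an unadjusted p under 0.05 and DESeq2 also called 0. DESeq2 called 2 members in H2/H2 brain against 0.343% of the genes it tested and 4 in H3/H3 brain against 0.752%. The Hba-a1 call held in 5 of 13 alternative analyses in H2/H2 brain and 8 of 13 in H3/H3 brain, and with sex as a covariate 0 members were called in H2/H2 brain. Groups did not overlap for 7.74%, 8.68% and 10.1% of genes in these 3 comparisons.

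Hba-a2 had the opposite sign in the same brains. It was 55.4, 44.1, 66.7 and 58.1 CPM in H2/H2, 69.4, 53.7, 61.1 and 51.9 CPM in H3/H3, and 41.1, 71.5, 66.5 and 49.2 CPM in H4/H4, against 40.7 to 47.7 CPM in C57BL/6J. The log2 fold changes were 0.40 ± 0.10, 0.45 ± 0.09 and 0.44 ± 0.15, none of which passed in edgeR (adjusted p = 0.311, 0.101 and 0.218). Hba-a2 was called in 2 of 13 alternative analyses in each of the 3 brains, DESeq2 among them in H2/H2 (adjusted p = 0.0272) and H3/H3 (adjusted p = 0.000492). Hbb-bs, at 84.7, 76.5, 108 and 102 CPM in H2/H2, 106, 80.5, 95.2 and 86.2 CPM in H3/H3 and 65.4, 128, 111 and 77.3 CPM in H4/H4, had log2 fold changes of -0.31 ± 0.10, -0.34 ± 0.08 and -0.26 ± 0.16 (edgeR, adjusted p = 0.442, 0.168 and 0.537). Hbb-bt, at 13.7 to 18.7 CPM in H2/H2, 13.9 to 16.3 in H3/H3 and 11.2 to 21.8 in H4/H4, had -0.27, -0.40 and -0.17. In H3/H3 brain Hbb-bs was called in 3 of 13 alternatives and Hbb-bt in 2 of 13. Alas2 lay at 2.33 to 4.33 CPM over these 12 brains and had -0.15, -0.28 and -0.29.

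In spinal cord, Hba-a2 rose in H2/H2 and H4/H4. It was 65.5, 80.8, 71.3 and 69.9 CPM in H2/H2, above all 3 C57BL/6J cords, with a log2 fold change of 0.57 ± 0.08 (edgeR, adjusted p = 0.000586). In H4/H4 it was 51.9, 72.4, 89.9 and 76.9 CPM, with replicate 1 inside the C57BL/6J range, and the log2 fold change was 0.61 ± 0.14 (adjusted p = 0.0417). In H3/H3 it was 40.7, 55.8, 47.7 and 67.7 CPM, and 0.16 ± 0.14 did not pass. The H2/H2 call held in 12 of 13 alternative analyses and the H4/H4 call in 6 of 13, and both were lost when the copies were counted as 1 gene.

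Hba-a1 fell in H2/H2 spinal cord, where it was 49.9, 54.5, 55.2 and 48.8 CPM against 59.3 to 84.6 CPM in C57BL/6J, by 0.38 ± 0.09 on the log2 scale (edgeR, adjusted p = 0.0382), and this call held in 6 of 13 alternatives. In H3/H3 it was 28.8, 43.5, 36.8 and 51.6 CPM with -0.72 ± 0.16 (adjusted p = 0.0525), and in H4/H4 33.0, 51.5, 63.8 and 54.1 CPM with -0.40 ± 0.17 (adjusted p = 0.294). Hbb-bs in H3/H3 cord was 70.3, 98.2, 84.6 and 106 CPM against 120, 123 and 157 CPM, without overlap, and its -0.53 ± 0.12 also missed the threshold (adjusted p = 0.0523). Hbb-bt there was 10.6, 15.1, 14.1 and 19.3 CPM, with -0.63 ± 0.17 (adjusted p = 0.102). For Hbb-bs, Hbb-bt and Alas2 the log2 fold changes were -0.28 ± 0.07, -0.25 ± 0.10 and -0.17 ± 0.14 in H2/H2 cord and -0.23 ± 0.14, -0.20 ± 0.18 and 0.01 ± 0.21 in H4/H4 cord, none of which passed in edgeR. Alas2 in H3/H3 cord was 2.09, 3.68, 3.79 and 3.69 CPM, with -0.38 ± 0.20 (adjusted p = 0.427). Members called numbered 2 of 5 in H2/H2 cord against 2.09% of genes tested, 1 of 5 in H4/H4 cord against 1.75%, and 0 of 5 in H3/H3 cord against 1.01%, where 3 had an unadjusted p under 0.05 and DESeq2 called 0. DESeq2 called 1 member in H2/H2 cord and 0 in H4/H4 cord, with the shares of all genes given below. Non-overlap was found for 12.6%, 12% and 10.9% of genes in these comparisons.

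The near-identity of the copies bears on all of these alpha-globin calls. Counted as 1 gene, the pair had log2 fold changes of -0.06, -0.02 and -0.06 in the brains of H2/H2, H3/H3 and H4/H4 and of 0.09, -0.29 and 0.11 in their spinal cords, with adjusted p from 0.422 to 0.958, and 0 members were called in any of the 6 comparisons. The expected counts of Hba-a1 and of Hba-a2 were not whole in 63 of 66 libraries and those of Hbb-bs and Hbb-bt in all 66, as reads were divided between the copies, whereas those of Alas2 were whole in all. The split between the copies, alpha or beta, is thus less certain than their sum.

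The split was regular between mice. Hba-a1 took 59.6, 59.6 and 59.1% of alpha-globin counts in C57BL/6J brains and 56.5, 58.3 and 59.8% in their spinal cords. It took 44.0, 46.6, 41.3 and 45.7% in H2/H2 brains, 41.4, 45.1, 44.2 and 45.5% in H3/H3 brains, and 39.8, 44.3, 44.0 and 41.6% in H4/H4 brains. The C57BL/6J mice were above all 12 mutants. The differences of -15.1, -15.4 and -17.0 points in brain, and of -16.1, -15.1 and -17.4 in spinal cord, each had an exact two-sided permutation p of 0.0286, the smallest possible for 4 against 3 mice. This comparison was added after the values had been seen and shares its 3 control mice.

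In H1/H1, the mutant on C57BL/6J itself, the share was 59.8, 47.5 and 59.2% in brain and 60.9, 42.9 and 52.6% in spinal cord. Replicate 2 was the lowest in both tissues, and replicates 1 and 3 in brain lay at the C57BL/6J level. The differences were -3.95 points (exact p = 0.7) and -6.03 points (exact p = 0.4). Hba-a1 was 89.6, 43.5 and 72.7 CPM in H1/H1 brains and 55.2, 43.4 and 58.6 CPM in cords, and Hba-a2 60.3, 48.2 and 50.02 CPM and 35.4, 57.7 and 52.8 CPM. Hbb-bs was 166, 80.2 and 134 CPM in brains and 107, 92.1 and 123 CPM in cords, Hbb-bt 31.4, 15.1 and 23.6 CPM and 16.6, 15.2 and 20.1 CPM, and Alas2 6.99, 2.44 and 4.64 CPM and 3.15, 3.56 and 5.03 CPM. Replicate 1 was the highest and replicate 2 the lowest of the 3 brains for each of these genes.

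EdgeR called 0 of 5 members in H1/H1 brain, where it called 0% of all genes tested, and 0 of 5 in H1/H1 spinal cord, where it called 0.289%. Groups did not overlap for 8.57% and 29.3% of genes. An unadjusted p under 0.05 was found for 1 member in brain and 3 in cord, and DESeq2 called 0 in both. The log2 fold changes lay between 0.13 and 0.30 in brain. Without H1/H1 replicate 1 those of Hba-a1, Hbb-bs, Hbb-bt and Alas2 were -0.14, -0.14, -0.06 and -0.19, so this mouse decided the sign of 4 of the 5 values. In cord they lay between -0.34 (Hbb-bt) and 0.10 (Hba-a2).

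H5/H5 was set against DBA/1J in 5 tissues. In brain Hba-a1 was 148, 134 and 119 CPM, inside the wide DBA/1J range of 38.4 to 190 CPM, with a log2 fold change of 0.19 ± 0.42. In spinal cord it was 168, 142 and 161 CPM against 57.8 to 144 CPM, with 0.58 ± 0.28 (edgeR, adjusted p = 0.581). Hbb-bs was 153, 135 and 130 CPM in brain and 194, 144 and 166 CPM in spinal cord, with 0.15 ± 0.41 and 0.56 ± 0.29. Hbb-bt was 15, 12.9 and 13.0 CPM and 20.01, 12.7 and 15.1 CPM, and Alas2 3.64, 3.56 and 3.92 CPM and 5.24, 4.22 and 5.31 CPM. Their log2 fold changes were 0.33 ± 0.39 and 0.64 ± 0.31 for Hbb-bt and 0.17 ± 0.37 and 0.54 ± 0.31 for Alas2. Hba-a2 stayed low in H5/H5, at 1.10, 4.28 and 4.65 CPM in brain and 5.71, 2.01 and 1.26 CPM in cord, with 0.35 ± 0.63 and 1.12 ± 0.92. The H5/H5 brains were close to each other for the genes other than Hba-a2, and the spread came from the DBA/1J mice. DBA/1J replicate 2, the highest in brain, shares no identifier prefix with an H5/H5 mouse. DBA/1J replicate 1 shares one with H5/H5 replicates 1 and 2, and replicate 3 with H5/H5 replicate 3. Hba-a1 in these DBA/1J mice, 104 and 38.4 CPM in brain and 102 and 57.8 in cord, was below that of the H5/H5 mice sharing their prefix. This was seen in the values and not tested. EdgeR called 0 of 5 members in both tissues, against 0% and 0.00581% of genes tested (groups did not overlap for 14.2% and 11%), no member had an unadjusted p under 0.05 and DESeq2 called 0.

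In the cerebellum of H5/H5, Hba-a1 was 163, 141 and 88.8 CPM against 86.0, 75.5 and 80.8 CPM in DBA/1J, and Hbb-bs was 161, 143 and 88.3 CPM against 89.1, 71.6 and 79.8 CPM. The Hba-a1 groups did not overlap, as was found for 10.9% of genes, and those of Hbb-bs did. The log2 fold changes of 0.70 ± 0.17 and 0.71 ± 0.18 had an unadjusted p of 0.00236 and 0.0027 in edgeR and did not pass after adjustment (0.596 each). Hbb-bt was 16.0, 12.9 and 7.44 CPM against 8.36, 6.45 and 6.15 CPM, with 0.80 ± 0.24 (edgeR, adjusted p = 0.784), and Alas2 4.96, 5.15 and 2.50 CPM against 2.92, 2.23 and 2.17 CPM, with 0.79 ± 0.26 (adjusted p = 0.833). Both genes were highest in H5/H5 replicates 1 and 2. Hba-a2, at 0.733 to 1.11 CPM in H5/H5 and 0.331 to 1.78 in DBA/1J, had 0.14 ± 0.60. EdgeR called 0 of 5 members there against 0.012% of genes, 4 members had an unadjusted p under 0.05 and DESeq2 called 0. Without H5/H5 replicate 3, the mouse whose sex label did not match, Hba-a1 was 0.91 ± 0.08 and Hbb-bs 0.93 ± 0.09 higher, and both were called (adjusted p = 0.00427 and 0.00474, in a range of 0.00427 to 0.991 over 12 alternatives), while Hbb-bt (1.05 ± 0.15, adjusted p = 0.0678) and Alas2 (1.05 ± 0.17, adjusted p = 0.102) were not. Without that mouse edgeR called 0.047% of genes tested.

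In cortex, Hba-a1 was 121, 134 and 76.2 CPM in H5/H5 and 116, 71.7 and 66.8 CPM in DBA/1J, and in hippocampus 109, 141 and 70.3 CPM and 101, 66.6 and 72.4 CPM. The log2 fold changes were 0.35 ± 0.23 and 0.40 ± 0.24, and without H5/H5 replicate 3 they were 0.55 ± 0.21 and 0.63 ± 0.17. Hbb-bs had 0.35 ± 0.22 and 0.38 ± 0.23, Hbb-bt 0.45 ± 0.29 and 0.36 ± 0.28, and Alas2 0.29 ± 0.31 and 0.39 ± 0.35 in cortex and hippocampus, and without that mouse they were 0.57 and 0.63, 0.74 and 0.65, and 0.51 and 0.71, with 0 members called. Hba-a2 was 0, 0.499 and 1.34 CPM in H5/H5 cortex against 0.410, 0.972 and 0.881 CPM (-0.31 ± 0.89), and 1.36, 2.17 and 0.364 CPM in H5/H5 hippocampus against 0.213, 1.41 and 1.25 CPM (0.37 ± 0.71). EdgeR called 0 of 5 members in cortex (0% of genes) and hippocampus (0.0118%), where groups did not overlap for 13% and 9.42%, none had an unadjusted p under 0.05 and DESeq2 called 0. In every mutant, the difference between the effect in spinal cord and in brain was called for 0 of 5 members, against 0% of genes in H1/H1, H2/H2, H3/H3 and H5/H5 and 0.0054% in H4/H4, with no unadjusted p under 0.05 and 0 called by DESeq2.

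**Figure D3:**
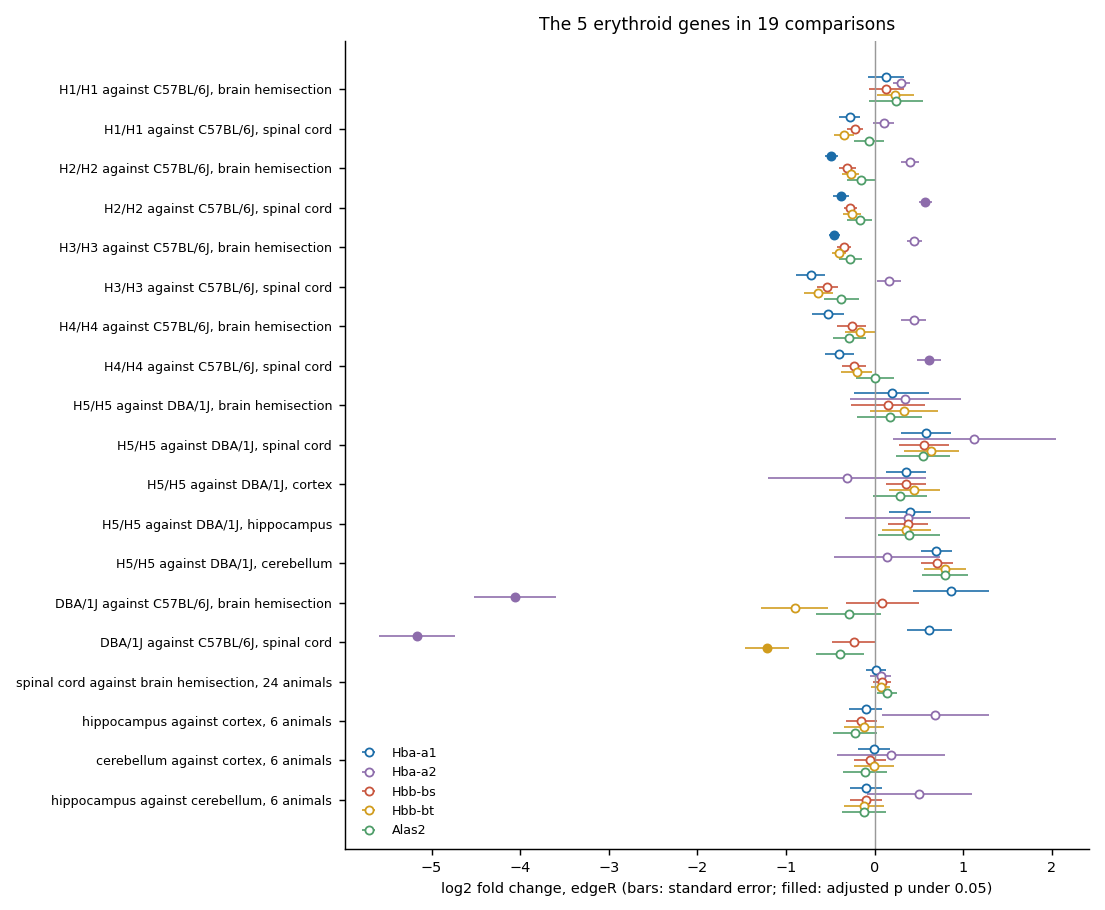
Log2 fold changes from edgeR of the 5 genes (horizontal axis, points with standard error bars) in 19 comparisons (vertical axis); filled points have an adjusted p under 0.05. Hba-a2 in DBA/1J against C57BL/6J, at -4.06 and -5.17, lies far from all other values, and comparisons that share control mice are not independent.

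The members did not differ in a called way between spinal cord and brain. In spinal cord against brain hemisection of the same 24 mice, the log2 fold changes were 0.02 ± 0.11 for Hba-a1, 0.07 ± 0.12 for Hba-a2, 0.08 ± 0.10 for Hbb-bs, 0.07 ± 0.11 for Hbb-bt and 0.14 ± 0.11 for Alas2. EdgeR called 0 of these 5, none had an unadjusted p under 0.05 and DESeq2 called 0, in a comparison that called 82.5% of all genes. This fit did not pair the tissues of a mouse. No member was called in any of 7 alternatives, 1 of which took the mouse as a block. Hba-a1 was higher in cord in 12 of 24 mice, Hbb-bs in 16 and Alas2 in 18. The ratio of cord to brain in a mouse had a median of 1.03 for Hba-a1 (0.588 to 1.55), 1.11 for Hbb-bs (0.646 to 1.60) and 1.15 for Alas2 (0.450 to 1.73).

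**Figure D4:**
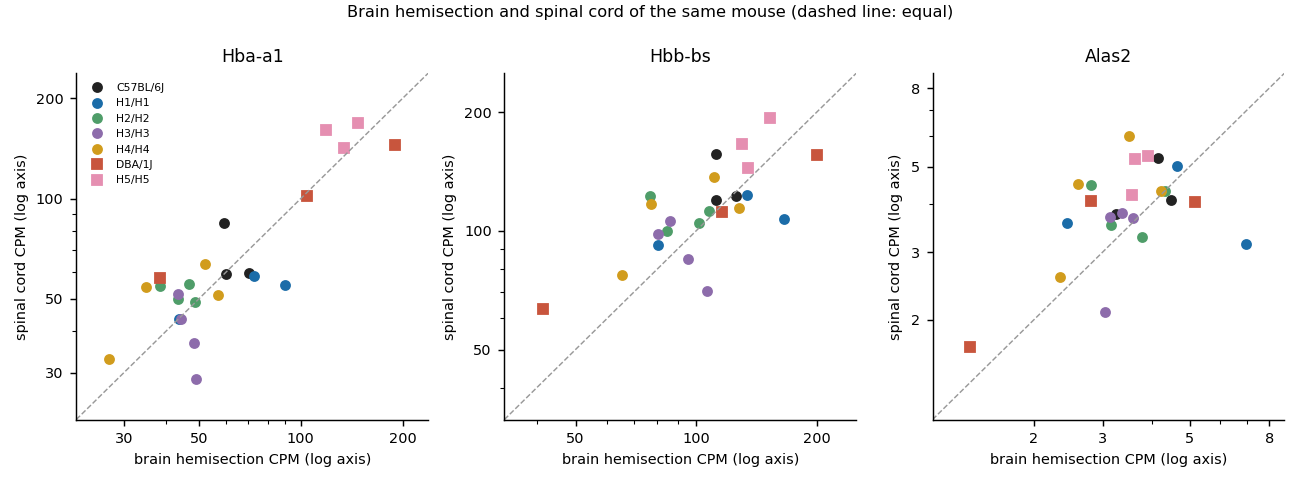
CPM in brain hemisection (horizontal) and spinal cord (vertical) of the same mouse for Hba-a1, Hbb-bs and Alas2, on log axes, coloured by strain, with squares for the DBA/1J background and a dashed line of equality. The 24 mice lie on both sides of the line, and DBA/1J replicate 2 (190 and 144 CPM of Hba-a1) and replicate 3 (38.4 and 57.8 CPM) keep their order in both tissues.

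Hba-a1 in brain was set against Hba-a1 in spinal cord of the same mouse, within each background because the backgrounds form separate clusters. Within the C57BL/6J background, r was 0.475 (n = 18, permutation p = 0.0446) and rho 0.531 (permutation p = 0.0253), and without the 2 farthest mice r was 0.348 (permutation p = 0.183). These 18 mice come from 5 groups with different mean Hba-a1, and the part of the groups in r was not tested. Within the DBA/1J background, r was 0.918 (n = 6, exact p = 0.0639) and rho 0.714 (exact p = 0.136), and without the 2 farthest mice r was 0.801 (exact p = 0.25). Adjusted over these 4 values (Benjamini-Hochberg), the permutation p was 0.0852 for the first 3 and 0.136 for the last, so none passed the threshold. For Hbb-bs the r was 0.382 and 0.913 within the backgrounds and for Alas2 0.211 and 0.843, given as descriptions.

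The 3 regions of a mouse were close to each other. The SD of log2 Hba-a1 was 0.42 between the means of the 6 mice and 0.18 within a mouse, and it was 0.42 and 0.16 for Hbb-bs, 0.46 and 0.18 for Hbb-bt and 0.44 and 0.18 for Alas2. The mean of the highest mouse, H5/H5 replicate 2, was 138 CPM of Hba-a1 and that of the lowest, DBA/1J replicate 2, was 71.3, a ratio of 1.94. Without H5/H5 replicate 3 the SDs between and within mice were 0.44 and 0.18 for Hba-a1, 0.43 and 0.15 for Hbb-bs, 0.46 and 0.17 for Hbb-bt and 0.45 and 0.17 for Alas2. Hba-a2, near 0 in these mice, varied within a mouse (0.75) rather than between mice (0.15). EdgeR called 0 of 5 members between hippocampus and cortex, where it called 40.7% of genes, between cerebellum and cortex (72.9%) and between hippocampus and cerebellum (72.8%), none had an unadjusted p under 0.05 and DESeq2 called 0. The log2 fold changes of the 5 members lay between -0.22 and 0.69 over these 3 comparisons. These fits did not pair the regions of a mouse.

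**Figure D5:**
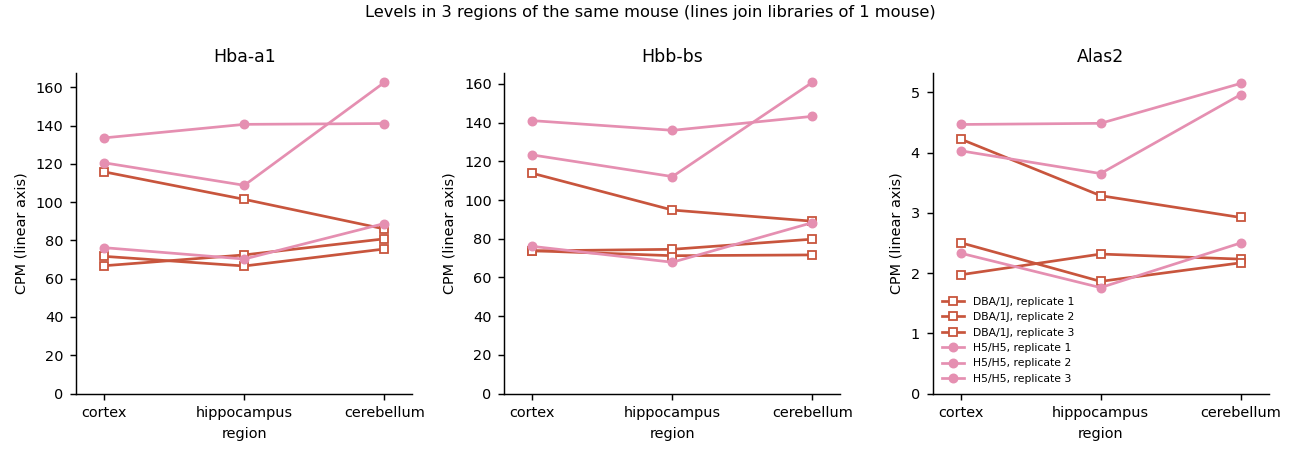
CPM (linear axis) of Hba-a1, Hbb-bs and Alas2 in cortex, hippocampus and cerebellum, with lines joining the libraries of 1 mouse, open squares for DBA/1J and filled circles for H5/H5. By their means over the regions H5/H5 replicates 1 and 2, with Hba-a1 of 131 and 138 CPM, lie above the other 4 mice, though in cortex Alas2 was 4.22 CPM in DBA/1J replicate 1 and 4.03 CPM in H5/H5 replicate 1, and H5/H5 replicate 3, at 78.4 CPM, lies among DBA/1J mice.

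The order of the groups by mean level can be read against their spread. In brain, mean Hba-a1 rose from H4/H4 (42.8 ± 14.0 CPM, SD) through H2/H2 (44.4 ± 4.53) and H3/H3 (46.2 ± 2.92), which did not differ beyond their SDs, to C57BL/6J (63.3 ± 6.11), H1/H1 (68.6 ± 23.3), DBA/1J (111 ± 76.1) and H5/H5 (133 ± 14.6), of which only C57BL/6J lay above the group below it by more than the larger SD. In spinal cord the steps larger than the SD were from H1/H1 (52.4 ± 7.97) to C57BL/6J (67.8 ± 14.5) and from DBA/1J (101 ± 43.3) to H5/H5 (157 ± 13.6). For Alas2 no neighbouring groups differed by more than their SD in brain or spinal cord, from 3.11 ± 1.92 CPM in DBA/1J brain to 4.92 ± 0.609 CPM in H5/H5 cord.

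Other globins were scarce. The embryonic genes Hba-x, Hbb-bh1 and Hbb-bh2 were at 0 in all 66 libraries and Hbb-y in 57 of them. Several defining red cell genes were at or near 0. The transcription factors Gata1 and Klf1, which drive red cell genes, were at 0 in 50 and 8 libraries. Slc4a1, the anion exchanger of the red cell membrane, lay between 0.0259 and 5.90 CPM. Sptb, Ank1 and Car2, also on the red cell list, are neural or glial genes as well, and the summed list reached 1034 to 1304 CPM in brains of the C57BL/6J background and 1028 to 1244 in those of the DBA/1J background.

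Of 15 to 17 genes of the red cell list tested in a comparison, Car2, a carbonic anhydrase, fell in H3/H3 brain by 0.37 on the log2 scale. It fell in DBA/1J brain by 0.24 and in H3/H3 spinal cord by 0.31. These comparisons called 0.164%, 11.2% and 1.01% of all genes tested. The transferrin receptor Tfrc, from the list of erythroid transcription factors and receptors, fell in DBA/1J brain by 0.37. Nothing is read from these single genes about the lists. In DBA/1J spinal cord 1 of 17 rose (Mkrn1, 0.11) and 3 fell (Epb41 by 0.27, Car2 by 0.31 and Bnip3l by 0.26), with a list median of -0.09 against 0.01 over all genes, in a comparison that called 21.3% of genes tested. Of 8 genes of haem synthesis, 1 rose and 1 fell in DBA/1J brain (list median 0.04), where 11.2% of all genes were called, and 1 rose and 2 fell in cord (0.01), where 21.3% were. Alad, the enzyme after Alas1 and Alas2, rose in DBA/1J by 1.70 in brain (edgeR, adjusted p = 2.4e-06) and 1.53 in cord (adjusted p = 1e-08). Ppox, a later enzyme, fell by 0.38 and 0.23, and Cpox fell by 0.28 in cord. Of 8 haem clearance genes tested in DBA/1J cord (list median -0.02), 2 fell, the iron exporter Slc40a1 by 0.35 and the ferritin heavy chain Fth1 by 0.36, a share near the 21.3% of all genes called there. Against their wild type, edgeR called no listed gene of the red cell, haem synthesis or clearance lists in H1/H1, H2/H2, H4/H4 or H5/H5 in any tissue.

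Markers of blood and vessel cells were read beside the members. In DBA/1J spinal cord the leukocyte genes Ptprc, Lyz2 and S100a9 rose by 0.60, 1.77 and 2.09, with summed leukocyte markers of 14.2 to 45.7 CPM against 9.83 to 11.9 in C57BL/6J. In H3/H3 cord Ptprc and Lyz2 rose, with sums of 13.3 to 20.7 CPM. Over all libraries Ptprc and Lyz2 were never below 2.27 and 3.36 CPM, whereas S100a9 had a mean of 0.356 CPM in spinal cord. Whether the sum follows leukocytes of the blood was not tested. Among endothelial and meningeal markers, Ly6c1 fell in H2/H2 brain and cord (by 0.42 and 0.28) and H4/H4 cord (by 0.39), Igfbp2 fell in H2/H2 and H4/H4 cord (by 0.59 and 0.68), and Col1a2 rose in the same cords (0.28 and 0.52). Slc6a13 rose in H2/H2 brain by 0.63. In DBA/1J the choroid plexus gene Clic6 fell in brain and cord (by 0.93 and 0.59), and the smooth muscle gene Acta2 fell in cord (by 0.43), with the endothelial gene Slco1a4 and the regional markers Prox1, Cbln1 and Hoxc8 also called lower there and Prox1 in brain. Of the leukocyte list 3 of 5 genes tested rose in DBA/1J cord (list median 0.93) and 2 of 8 in H3/H3 cord (0.91), where 21.3% and 1.01% of all genes tested were called. Of 7 endothelial genes 1 fell in each of H2/H2 brain, H2/H2 cord, H4/H4 cord and DBA/1J cord, with medians of 0.03, 0.02, 0.03 and -0.0039, against 0.136%, 2.09%, 1.75% and 21.3% of all genes called. The count in DBA/1J cord is no higher than that of genes at large. Of 6 meningeal genes 1 rose in H2/H2 brain and 1 rose and 1 fell in H2/H2 and H4/H4 cord, with medians of 0.09, 0.07 and -0.06. Of the choroid plexus list 1 of 6 fell in DBA/1J brain (-0.44) and 1 of 2 in cord (-0.34), and of the smooth muscle list 1 of 3 fell there (-0.37), in comparisons that called 11.2% of all genes in brain and 21.3% in cord, so that nothing is read from these single genes about the lists. The part of these cell types in the globin values was not tested.

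The brain of H1/H1 replicate 1 had the highest level of the 66 libraries for 11 of 26 matched red cell genes and 6 of 13 leukocyte genes. The share of all genes that were highest in this library was not counted, so these counts have no background. Its total count, 32889755, was the lowest of the series, and of the 11 red cell genes only Slc4a1 exceeded 1.49 CPM there. Slc4a1 was 5.90 CPM there and at most 1.58 in the other 65, and Hemgn 1.03 against at most 0.165. The neutrophil genes Ngp and S100a8 were 9.73 and 7.57 CPM against at most 2.42 and 2.81. Alas2 and Hbb-bt were at their highest of all libraries there, 6.99 and 31.4 CPM, and Hba-a1 and Hbb-bs, at 89.6 and 166 CPM, at their highest of the 36 libraries of the C57BL/6J background. The globin to Alas2 ratio was 49.6, near the low end of its range. The spinal cord of the same mouse had Slc4a1 at 0.0294 CPM and S100a8 at 0. The part of these cells in its globin values was not tested.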

How the data were processed

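Bulk polyA RNA of brain hemisections, spinal cords and 3 brain regions was measured in 66 libraries of 30 mice. The authors trimmed reads with Trim Galore, aligned them with STAR to GRCm38 and estimated expression with RSEM, and the annotation version is not given in the sources used here. The authors deposited RSEM expected counts per gene, which are estimated counts with shared reads divided between genes. The authors also deposited TPM values, used here for levels between genes. CPM, counts scaled to the library's total, were computed here from expected counts.

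Expected counts were rounded and tested with edgeR 4.0.16 (quasi-likelihood, TMM, low-count filter, R 4.3.3), each comparison on its own groups, and adjusted over all genes tested (Benjamini-Hochberg, threshold 0.05), as the study compared groups in pairs. Shares were compared by exact permutation over mice with SciPy 1.17.1. Code was tested on simulated data. Alternatives were DESeq2 1.42.0, another filter or scale, the near-identical copies counted as 1 gene, sex as a covariate, a replicate block, single backgrounds, and each mouse left out in turn.

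The fits across tissues and regions had strain or group as a term but not the mouse. Libraries of 1 mouse counted as separate there, and an alternative took the mouse as a block. Ratios and correlations between tissues paired the libraries of a mouse. Replicate numbers paired mice by deviation only for H1/H1 brain (r of 0.114 to 0.199), where the replicate block changed no member's call. Identifiers without a symbol held 1.52 to 12.7% of counts and stayed in the library sizes and tests. Labels name separate mice as replicates. The total counts of 32889755 to 59120536 per library limit precision most for Alas2 and, in the DBA/1J background, for Hba-a2.

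The rule was to name the 5 members in every comparison, to give listed genes by counts and medians, and to name those called in a comparison that called a member. Car2, Ptprc and Lyz2 in H3/H3 spinal cord and Hbq1a and Hbq1b between regions fall outside it and were named after their values were seen. The 10 genes most correlated with summed globins and with Alas2 are also named. The members and lists were chosen with earlier results of these data known, and the shares of each mutant and the spread over regions without H5/H5 replicate 3 were added after the values were seen. Promoter sequences are from RefSeq (GRCm38.p6) and coding sequences from GENCODE vM39 (GRCm39), read as the longest open frame.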

Additional observations from a re-analysis of the deposited data

Results flagged for a closer look

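The gap between the highest or lowest mouse and the nearest other was measured in 42 values of 6 groups of 4 mice. Chance sets apart about 1 in 20 of such values, and the 2 found here are no more than that rate gives. Alas2 in the spinal cord of H3/H3 replicate 1, 2.09 CPM, lay far below the other 3 mice of its group, at 3.68, 3.79 and 3.69 CPM. The share of Hba-a1 in alpha-globin counts in the spinal cord of H4/H4 replicate 1, 38.8%, lay below the other 3, at 41.5, 41.5 and 41.3%. In both mice Hba-a1 was also the lowest of its group in spinal cord, at 28.8 and 33.0 CPM. No other value was set apart in this way.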

How the results depend on the processing

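The calls of the globins depend on how near-identical copies were counted. With the copies counted as 1 gene, 0 members were called in H2/H2 brain and spinal cord, H3/H3 brain, H4/H4 spinal cord and DBA/1J against C57BL/6J in brain and spinal cord. By the construction of this setting the log2 fold change of Hba-a2 became that of the pair, which was -0.11 in H1/H1 cord, -0.061 in H2/H2 brain, -0.019 in H3/H3 brain, -0.29 in H3/H3 cord, -0.056 in H4/H4 brain, 0.35 in H5/H5 cortex and 0.14 in DBA/1J brain. It was also -0.094 for hippocampus against cortex, -0.0044 for cerebellum against cortex and -0.090 for hippocampus against cerebellum. Hba-a1 reversed to 0.095 in H2/H2 cord, 0.11 in H4/H4 cord and -0.14 in DBA/1J cord. Hbb-bs in DBA/1J brain reversed to -0.025, and the H4/H4 difference of effects between cord and brain for Hbb-bt to 0.023.

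Without the low-count filter the members called numbered 3 in H1/H1 cord, 2 in H2/H2 brain, 4 in H2/H2 cord, 4 in H3/H3 brain, 3 in H3/H3 cord, 2 in H4/H4 brain, 2 in H4/H4 cord and 3 in H5/H5 cerebellum, against 1.89%, 0.308%, 3.06%, 0.33%, 1.49%, 1.38%, 2.68% and 0.276% of all genes in that order. DESeq2 called 2 in H2/H2 brain, 1 in H2/H2 cord, 4 in H3/H3 brain and 0 in H4/H4 cord, against 0.343%, 2.18%, 0.752% and 2.27% of genes, and gave Hba-a2 in spinal cord against brain as -0.027. With sex as a covariate 0 were called in H2/H2 brain, 2 in H4/H4 cord and 4 in DBA/1J cord, against 0.0284%, 2.24% and 20.6%, and Alas2 in H4/H4 cord was -0.10 and Hbb-bs in DBA/1J brain -0.43. The cause of these shifts was not tested. In the DBA/1J background alone Hba-a2 in spinal cord against brain was -0.51. Among wild-type mice alone the share of Hbb-bt differed by -6.48 points in brain and -6.70 in cord and that of Hba-a1 by 37.5 and 40.7, where 3 against 3 mice cannot pass the threshold.

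With the replicate block, 0 members were called in H2/H2 brain and in H3/H3 brain, 3 in H3/H3 cord and 2 in H4/H4 cord, against 0.0171%, 0.0113%, 0.919% and 1.33% of genes. In these groups the mice share only a number. Under the replicate block Alas2 in H4/H4 cord was -0.071, Hbb-bs in DBA/1J brain -0.17, and Hba-a1 and Hbb-bt in cerebellum against cortex 0.012 and 0.0083.

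With each mouse left out in turn, members called ranged from 0 to 1 in H2/H2 brain, 1 to 3 in H2/H2 cord, 0 to 2 in H3/H3 brain, 0 to 3 in H3/H3 cord, 0 to 1 in H4/H4 brain, 0 to 1 in H4/H4 cord, 0 to 2 in H5/H5 cerebellum and 1 to 2 in DBA/1J brain. The share of Hba-a1 in H1/H1 brain ranged from -6.08 to 0.056 points. Fold changes that changed sign in H1/H1 brain ranged from -0.14 to 0.38 (Hba-a1), -0.14 to 0.38 (Hbb-bs), -0.061 to 0.48 (Hbb-bt) and -0.19 to 0.57 (Alas2), and in H1/H1 cord from -0.025 to 0.27 (Hba-a2) and -0.29 to 0.079 (Alas2). In H4/H4 cord Alas2 ranged from -0.18 to 0.21. In H5/H5 brain the ranges were -0.21 to 0.86 (Hba-a1), -0.086 to 1.47 (Hba-a2), -0.25 to 0.78 (Hbb-bs), -0.052 to 0.92 (Hbb-bt) and -0.18 to 0.76 (Alas2). For Hba-a2 in H5/H5 they were -1.60 to 0.27 in cortex, -0.24 to 0.84 in hippocampus and -0.25 to 1.41 in cerebellum. In DBA/1J brain they were -0.54 to 0.49 (Hbb-bs) and -0.89 to 0.053 (Alas2), and in DBA/1J cord -0.61 to 0.066 (Hbb-bs). For cerebellum against cortex they were -0.088 to 0.12 (Hba-a1), -0.32 to 0.55 (Hba-a2), -0.13 to 0.037 (Hbb-bs), -0.044 to 0.044 (Hbb-bt) and -0.18 to 0.027 (Alas2), and for hippocampus against cerebellum -0.18 to 0.0039 (Hba-a1) and -0.19 to 0.010 (Hbb-bt). For the effect in cord minus that in brain they were -0.39 to 0.10 (Hba-a2) and -0.54 to 0.24 (Alas2) in H1/H1, -0.028 to 0.33 (Hba-a1), -0.089 to 0.18 (Hbb-bs), -0.084 to 0.12 (Hbb-bt) and -0.16 to 0.10 (Alas2) in H2/H2, -0.30 to 0.0069 (Hbb-bs) and -0.20 to 0.065 (Alas2) in H3/H3, -0.082 to 0.18 (Hbb-bs) and -0.11 to 0.076 (Hbb-bt) in H4/H4, and -0.51 to 1.42 (Hba-a2) in H5/H5. None of the fold changes that changed sign without 1 mouse had passed the test.

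Of the counts of calls and share differences, 360 alternative values kept their direction and side of the threshold or stayed within 1.5 times, 50 moved and 4 became weaker. Depth limits Alas2 most, at 49 to 255 counts a library, and Hba-a2 in the DBA/1J background.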

Other observations

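Hbq1a and Hbq1b, the theta globins, differed between the regions of the DBA/1J-background mice although the 5 members did not pass the test there. Hbq1a had a mean of 2.03 CPM in hippocampus, 0.477 in cortex and 0.0840 in cerebellum. In edgeR it was higher in hippocampus than in cortex by a log2 fold change of 2.05 and than in cerebellum by 4.64, and Hbq1b by 2.00 and 2.83. These comparisons called 40.7% and 72.8% of all genes tested. Both theta globins were near 0 in cerebellum, Hbq1b at a mean of 0.112 CPM.

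The genes whose deviations from the group means were most like those of the summed globins, over 66 libraries and 19856 genes, were Agbl1 (Pearson r = 0.632), Gm43290 (0.604), Aoc2 (0.598), 2300009A05Rik (0.579), Chd1l (0.562), Cdc6 (0.532), Bcl6b (0.530), Gas2l1 (0.53), Rbm12b1 (0.524) and Mxd1 (0.521). For Alas2 they were Aoc2 (0.591), 2300009A05Rik (0.559), Zfp865 (0.553), Slc4a1 (0.551), Cilk1 (0.546), Rnf215, Gm37262, Gm43290, Mov10 and Chd1l (0.519). These values describe libraries that share mice, and no test was made.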
